A study of Mus musculus with 3 samples.

Results

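The histone genes of spinal cord microglia are described here in 3 single-cell libraries of mouse lumbar cord. Their members were taken by symbol: the rows whose name starts with Hist1h, Hist2h, Hist3h or Hist4h, and the variant genes H2afz, H2afx, H2afy, H2afv, H3f3a and H3f3b. This gave 75 of 27998 rows, of which 69 carry the names of replication-dependent cluster genes and 6 those of the variants. The rule uses names and no measured value, but it was set with earlier results of these data known. In GENCODE M21, Hist1h2al is a processed pseudogene at chr13:51202727-51203065 (-), and both it and a lincRNA row named Hist2h2bb are counted among the 69, each with a mean below 10 CPM (UMIs per 1000000 UMIs of a library). The symbol Hist2h2bb stands on a pair of rows with different identifiers. YFP (+) cells of the lumbar cord had been sorted by flow cytometry, and the mice were Cx3cr1-creER-yfp heterozygous C57BL/6 young adults of both sexes, either naive or studied 24 h or 48 h after sciatic nerve transection. The study asked what drives adult microglia to proliferate after nerve injury. The reporter is driven from the Cx3cr1 locus, which is active in microglia and also in other myeloid cells, and all 3 groups carried it. Each group was a pool of 3 animals and 1 library, and no time point has a replicate. The barcodes carry a suffix of 1, 2 or 3 that is tied to no time point in the sources used here, and the libraries are called library 1, 2 and 3 of unknown time point.

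Histones are the proteins around which DNA is wound. The replication-dependent genes lie in clusters, are transcribed mainly in S phase when new chromatin has to be packed, and give mRNAs that mostly end in a short stem-loop instead of a poly(A) tail, to which the stem-loop binding protein Slbp attaches. The variant genes are mostly transcribed throughout the cell cycle into mRNAs with poly(A) tails. They encode H2A.Z, H2A.X, macroH2A and the replacement H3, which can be exchanged into chromatin outside replication. Microglia are long-lived cells that divide little in the healthy cord and re-enter the cell cycle after nerve injury.

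Since the libraries were primed on poly(A) tails, the transcript ends are shown first. The GENCODE M21 transcripts were searched over their whole length for a stem of 6 base pairs beginning with GG around a loop of 4 bases beginning with TT. Where a transcript held several, the last was taken. This stem-loop was found in 42 of the 67 replication-dependent members that matched a transcript, against 0.594% of 21901 genes with a protein-coding transcript. Below, stems are in capitals and the loop in lower case, for the members that set the library differences and for the only variant that carries it.
Hist1h2ap, 3 bases from the annotated end: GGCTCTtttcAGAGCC
Hist1h1c, 840 bases from the annotated end: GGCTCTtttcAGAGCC
Hist4h4, 2445 bases from the annotated end: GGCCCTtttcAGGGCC
H2afx, 822 bases from the annotated end: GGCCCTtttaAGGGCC

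A stem-loop of the searched pattern thus stood at the very end of Hist1h2ap and far inside the annotated transcripts of Hist1h1c, Hist4h4 and H2afx, with the same letters in Hist1h2ap and Hist1h1c and other letters in Hist4h4 and H2afx. The poly(A) signal AATAAA lay in the last 40 bases of 15 of 67 replication-dependent members and 4 of 6 variants, against 64.1% of all genes. These shares are not fully alike, since members were read over all their transcripts and other genes over protein-coding ones only. In Hist1h2be and H2afy the signal lay only in a transcript not annotated as protein-coding. A stem-loop with at least 100 bases after it was annotated in 21 replication-dependent members, 21 had it within 0 to 99 bases of the end, and in the other 27 none was found or no transcript matched. The protocol captures RNA by a run of A, and whether the UMIs of a member came from transcripts with a tail or from priming inside a transcript was not tested, also for Hist1h2ap, which has no AATAAA in its last 40 bases.

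The promoters, 250 bases before to 50 after the start in RefSeq on GRCm38.p6, are written along the gene and shown for the H2A gene and the linker histone gene that led in different libraries, and for the leading H2A and H3 variants. Capitals mark the CCAAT box, the TATA box when spelled TATAAA, and the octamer box when spelled ATTTGCAT, each searched on either strand.
Hist1h2ap chr13:21833426-21833725 (-): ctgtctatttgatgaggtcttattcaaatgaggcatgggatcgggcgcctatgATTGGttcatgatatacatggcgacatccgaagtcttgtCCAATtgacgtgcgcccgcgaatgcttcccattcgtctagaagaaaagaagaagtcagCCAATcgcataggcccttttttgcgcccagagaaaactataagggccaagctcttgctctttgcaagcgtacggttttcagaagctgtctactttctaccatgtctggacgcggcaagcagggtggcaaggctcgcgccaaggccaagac
Hist1h1c chr13:23738557-23738856 (+): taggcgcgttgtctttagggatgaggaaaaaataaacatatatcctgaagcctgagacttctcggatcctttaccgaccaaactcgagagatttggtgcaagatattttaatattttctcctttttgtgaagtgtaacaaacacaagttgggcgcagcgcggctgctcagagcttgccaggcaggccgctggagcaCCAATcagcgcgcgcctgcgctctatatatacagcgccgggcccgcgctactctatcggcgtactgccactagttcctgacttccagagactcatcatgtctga
H2afz chr3:137864237-137864536 (+): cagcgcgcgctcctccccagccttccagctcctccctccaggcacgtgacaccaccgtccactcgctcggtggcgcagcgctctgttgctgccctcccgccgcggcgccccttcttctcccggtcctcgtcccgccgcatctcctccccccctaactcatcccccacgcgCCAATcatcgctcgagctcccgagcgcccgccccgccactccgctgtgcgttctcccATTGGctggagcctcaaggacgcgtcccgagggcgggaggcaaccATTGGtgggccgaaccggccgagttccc
H3f3b chr11:116024455-116024754 (-): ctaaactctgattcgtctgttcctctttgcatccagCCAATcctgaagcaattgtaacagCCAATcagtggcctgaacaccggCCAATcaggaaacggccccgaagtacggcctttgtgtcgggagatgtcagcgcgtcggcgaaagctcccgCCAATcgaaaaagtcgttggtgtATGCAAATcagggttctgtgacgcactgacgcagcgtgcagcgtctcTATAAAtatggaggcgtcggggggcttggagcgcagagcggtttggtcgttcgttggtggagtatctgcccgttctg

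CCAAT was read in 52 of 61 promoters of replication-dependent members (85.2%), against 37.4% of 32851 promoters, and in 4 of 5 variant promoters. It stood in every promoter found for the H1, H2A, H2B and H3 families and in 3 of 12 for H4. TATAAA was read in 35 of 61 (57.4%), against 13.6% of all promoters. The octamer was read in 13 of 61 (21.3%), against 1.73% of all, and was limited to 7 of 18 H2A and 6 of 15 H2B promoters among the replication-dependent members. Neighbouring H2A and H2B genes on opposite strands can share promoter bases, so the same motif can be counted for both genes. The octamer of Hist1h2aa and Hist1h2ba, that of Hist1h2ae and Hist1h2bg and that of Hist1h2ah and Hist1h2bk were such cases. H3f3b held all 3 motifs, whereas H2afz held CCAAT alone. These are matches of letters, and binding was not measured.

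Library 1 held 609 cells and 1343055 UMIs, library 2 held 3591 cells and 24097543 UMIs, and library 3 held 3322 cells and 19769170 UMIs, with median depths of 2218, 5952 and 5742 UMIs per cell. Levels are UMIs per 1000000 UMIs of a library (CPM), with exact Poisson 95% intervals, and ratios carry exact binomial intervals. Neither holds any variation between animals, since only the error of counting enters them, and no test between libraries was possible. A count of 0 allowed up to 2.23 CPM in library 1, 0.124 in library 2 and 0.152 in library 3. Barcodes shared between libraries numbered 25 and touched 51 of 7522 cells. Without these cells the library ratios of the whole replication-dependent and the whole variant sum kept their direction and lay inside their intervals. Sums of smaller groups were not remade without these cells. All 10 microglia markers were counted in all libraries and summed to 28093, 22976 and 26058 CPM. The 5 oligodendrocyte markers summed to 77.4, 63.3 and 72.8 CPM, the 4 endothelial markers to 35.0, 15.0 and 19.8 CPM, nearly all of it Pecam1, and the 4 lymphocyte markers to 0, 12.2 and 0.455 CPM, most of it from 225 Gzma UMIs in library 2. The sums lay between 3.32 and 8.93 CPM for 7 monocyte markers, between 0.745 and 2.24 CPM for 6 markers of perivascular macrophages, and at no more than 4.55 CPM for astrocyte, neuron, erythroid and neutrophil markers. Of the defining markers, Cd163, Lyve1, Cldn5 and Cd3e were at 0. The part of these cells in the results was not tested. A 3′ count is not divided by transcript length, so levels are compared between libraries and not between genes.

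The libraries differed in 3 lists that are used below beside the histones. The 25 genes of a replication list summed to 324 CPM in library 1, 1346 in library 2 and 634 in library 3. A list of 20 mitosis genes gave 36.5, 932 and 27.0 CPM, and 20 immediate early and heat shock genes 2268, 3058 and 29478 CPM. Library 2 thus stood out for mitosis genes and library 3 for early genes, and fewer expressing cells and less RNA per cell are separated below by counts per cell.

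The replication-dependent histones were highest in library 2. Their summed level was 401 CPM (367 to 436), 711 CPM (700.0 to 721) and 568 CPM (557 to 578) in libraries 1, 2 and 3. Library 2 was 1.77-fold above library 1 (1.63 to 1.94), library 3 1.42-fold above library 1 (1.30 to 1.55), and library 2 1.25-fold above library 3 (1.22 to 1.28). A different gene led in each library: Hist3h2a gave 22.9% of the group's UMIs in library 1, Hist1h2ap 34.0% in library 2 and Hist1h1c 31.1% in library 3. Leaving out Hist1h2ap alone turned the order of libraries 2 and 3, while leaving out Hist1h1c or both genes kept it. Without Hist1h2ap the sums were 364, 469 and 522 CPM and library 3 was the highest, without Hist1h1c they were 357, 656 and 391 CPM, and without both they were 320, 415 and 345 CPM.

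The variants behaved otherwise and were highest in library 3. Their sums were 2135 CPM (2057 to 2214), 3238 (3215 to 3260) and 5640 (5607 to 5674) in libraries 1, 2 and 3. Library 2 was 1.52-fold above library 1 (1.46 to 1.57) and 0.574-fold of library 3 (0.569 to 0.579). H3f3b alone set this order, with 57.8%, 38.4% and 83.3% of the variant UMIs. Without it the other 5 variants summed to 901, 1995 and 941 CPM, so that library 2 was 2.12-fold above library 3 (2.08 to 2.16).

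**Figure D1:**
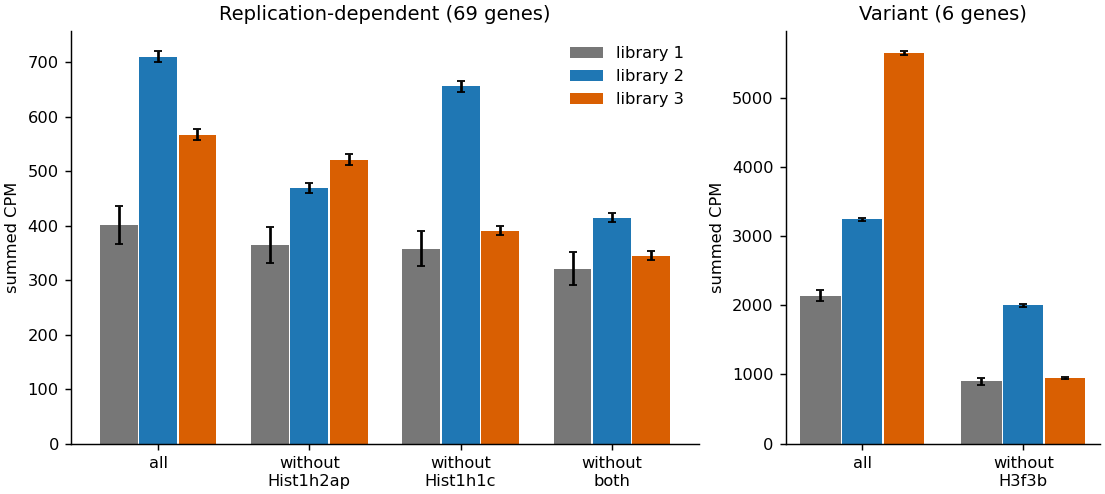
Summed level in CPM (bars, with exact Poisson 95% intervals) of the 69 replication-dependent and the 6 variant histone genes in libraries 1, 2 and 3, for all members and without the leading ones. Library 2 led the replication-dependent sum at 711 CPM and library 3 the variant sum at 5640 CPM, and both orders turned when Hist1h2ap or H3f3b was left out.

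Of the 75 members, 18 reached a mean of 10 CPM over the libraries and entered the counts of members that differed at least 2-fold (with 1 CPM added), namely 12 of 69 replication-dependent members and all 6 variants. A high level in 1 library could bring a gene past this filter. Hist1h2ae, below 10 CPM in libraries 1 and 3, passed it only through library 2, so its calls there are no separate support. Between library 2 and library 1, 3 of 12 replication-dependent members (Hist1h2ap, Hist1h2ae and Hist1h4i) and 3 of 6 variants (H2afz, H2afx and H2afv) were higher and none was lower, where 4.55% of 8130 genes were higher and 3.7% lower. Between library 3 and library 1, 2 of 12 replication-dependent members (Hist1h1c and Hist4h4) and 1 of 6 variants (H3f3b) were higher and Hist1h4d was lower, where 3.62% of genes were higher and 5.01% lower. Between library 2 and library 3, Hist1h2ap, Hist1h2ae, H2afz, H2afx and H2afv were higher and Hist1h1c, Hist4h4 and H3f3b lower, where 1.92% of genes were higher and 1.32% lower. The median log2 ratio of the 12 replication-dependent members was 0.23, 0.43 and 0.31 in these comparisons, and that of the variants 0.92, 0.21 and 0.88, while all 8130 genes had medians of -0.09, -0.09 and 0.02. Among the 9 members with a mean of at least 50 CPM, 3, 2 and 5 differed at least 2-fold in either direction in these comparisons, where 5.91%, 7% and 2.55% of 3215 genes did. With no filter, 25, 7 and 27 of the 71 members with a UMI did, where 10.9%, 10.8% and 4.07% of 16305 genes did. The comparisons share libraries and are given side by side.

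**Figure D2:**
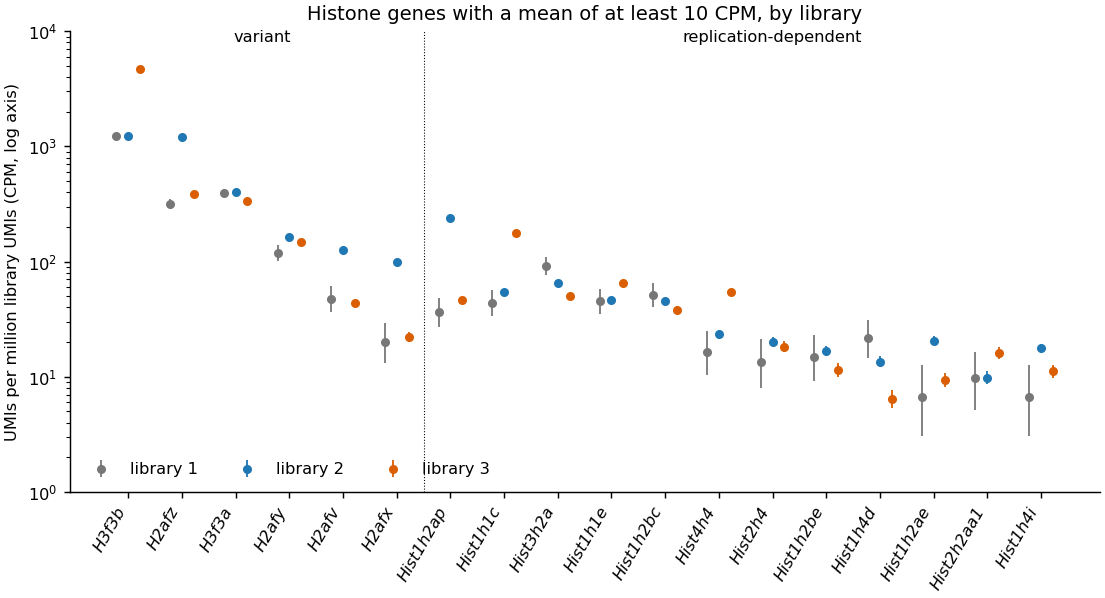
Level of each histone gene with a mean of at least 10 CPM in libraries 1, 2 and 3 (points, CPM on a log axis, with exact Poisson 95% intervals), variants left and replication-dependent members right of the dotted line. H2afz, H2afv, H2afx and Hist1h2ap stood apart in library 2, and H3f3b, Hist1h1c and Hist4h4 in library 3.

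Among the variants of H2A, 3 of 4 genes were at least 2-fold higher in library 2. H2afz, which encodes H2A.Z, a variant found at gene starts, lay on chr3:137864487-137866922 (+) and measured 318 CPM (288 to 350), 1202 CPM (1188 to 1216) and 390.0 CPM (381 to 399) in libraries 1, 2 and 3. H2afv, which encodes a close relative of H2A.Z from another chromosome, measured 47.7, 126 and 43.8 CPM. Library 2 was above library 1 by 3.78-fold for H2afz (3.44 to 4.17) and 2.65-fold for H2afv (2.07 to 3.45), and above library 3 by 3.08-fold (3.01 to 3.16) and 2.89-fold (2.67 to 3.12). Library 3 was at 1.23-fold of library 1 for H2afz (1.11 to 1.36) and at 0.919-fold for H2afv (0.713 to 1.204), an interval that held 1. The ratio of H2afz to H2afv UMIs was 6.67 (5.12 to 8.82), 9.51 (9.16 to 9.88) and 8.90 (8.30 to 9.56). In the last 400 bases of its transcripts, 21.5% of the windows of H2afz as long as a read (91 bases) also occur in other annotated genes, while none of those of H2afv do.

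H2afx, which encodes the H2A.X that is phosphorylated around DNA breaks, measured 20.1 CPM (13.2 to 29.3), 99.97 (96.0 to 104) and 22.1 (20.1 to 24.3), so that library 2 was 4.52-fold above library 3 (4.08 to 5.02). It is the variant with both a stem-loop and a longer annotated end. H2afy, which encodes macroH2A, measured 120 (102 to 140), 164 (159 to 169) and 147 CPM (142 to 152), and its ratio of library 2 to library 3 was 1.11 (1.06 to 1.17). None of the windows in the end part of the transcripts of H2afx or H2afy was shared with other genes. Windows from the ends of Hist1h2ap and some other replication-dependent H2A genes do occur in H2afx, further from its end. Whether reads from there were counted for the wrong gene was not tested.

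The pair of genes for the replacement H3 encode the same protein and differed from each other. H3f3b measured 1234 CPM (1175 to 1295), 1242 (1228 to 1257) and 4699 (4669 to 4730), with library 2 at 1.01-fold of library 1 (0.958 to 1.06) and library 3 3.81-fold above library 1 (3.63 to 4.001). H3f3a measured 395 (362 to 430.5), 403 (395 to 411) and 338 CPM (330.1 to 346), and was the lowest in library 3. The ratio of H3f3b to H3f3a UMIs was 3.12 (2.83 to 3.45) and 3.08 (3.01 to 3.15) in libraries 1 and 2 and 13.9 (13.6 to 14.2) in library 3. Windows shared with other genes made up 6.33% for H3f3b and 13.8% for H3f3a, most of them with predicted genes or pseudogenes.

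The high H3f3b level in library 3 was found in most of its cells. When each cell was thinned to 2000 UMIs, which left out 201, 22 and 38 shallower cells, the median was 2 H3f3b UMIs per cell in libraries 1 and 2 and 9 in library 3. At least 5 UMIs were counted in 11.52% of 408 cells, 11.8% of 3569 cells and 90.1% of 3284 cells, and 3 cells of library 3 had none. H2afz had a median of 2 UMIs per cell in library 2, against 0 and 1 in libraries 1 and 3, with 463 of 3569 cells at 0. At least 1 variant UMI was found in 98.8%, 99.7% and 100% of thinned cells.

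**Figure D3:**
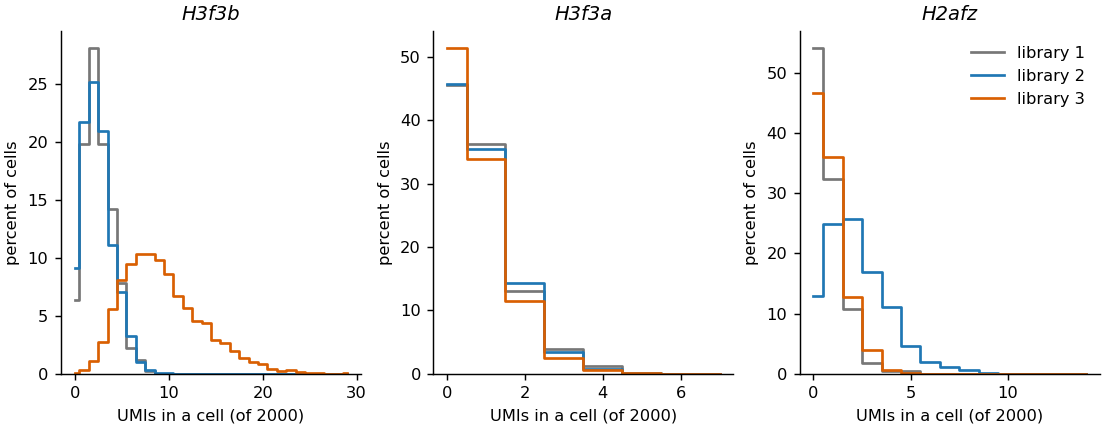
Percent of cells (vertical axis) with a given number of UMIs of H3f3b, H3f3a or H2afz (horizontal axis) after each cell was thinned to 2000 UMIs, for libraries 1 (408 cells), 2 (3569 cells) and 3 (3284 cells). The H3f3b distribution of library 3 was shifted to the right, with a median of 9 against 2, and overlapped the others, which reached 8 UMIs in library 1 and 10 in library 2, while H3f3a overlapped in all 3 and H2afz was shifted in library 2.

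Of the replication-dependent families, H2A differed most between libraries 2 and 3. Its 19 members summed to 155, 367 and 137 CPM, with library 2 2.68-fold above library 3 (2.57 to 2.80). Hist1h2ap gave 5814 of the 8854 H2A UMIs in library 2. The H2A sum was not made without this gene, so the rank of the family cannot be told apart from it. The 6 linker histone H1 members together ran the other way, at 90.8, 129 and 245 CPM, with library 2 at 0.526-fold of library 3 (0.503 to 0.55). Hist1h1c gave 1307 of the 3105 H1 UMIs in library 2 and 3490 of the 4842 in library 3. The H1 sum was not made without it, and the H1 gene Hist1h1b, given below, was higher in library 2. H2B (19 members) gave 78.9, 99.4 and 65.5 CPM, H4 (13 members) 68.5, 92.5 and 102 CPM, and H3 (12 members) was low throughout, at 7.45, 22.3 and 18.2 CPM.

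Hist1h2ap, an H2A gene of the large cluster at chr13:21833026-21833507 (-), measured 36.5 CPM (27.0 to 48.2), 241 (235 to 248) and 46.1 (43.2 to 49.2). It was 6.61-fold higher in library 2 than in library 1 (4.995 to 8.95) and 5.23-fold higher than in library 3 (4.88 to 5.61). In thinned cells it was found in 5.39%, 19.9% and 7.80% of cells, and 42 cells of library 2 held at least 5 of its UMIs, up to 11, against 1 such cell in library 3 and none in library 1. All of its 91-base windows also occur in other H2A genes, so its counts cannot be assigned to this copy alone. Hist1h2ae, an H2A gene with 36.8% of windows shared, measured 6.70, 20.6 and 9.41 CPM.

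Hist1h1c, a linker histone gene at chr13:23738808-23740367 (+), measured 43.9 CPM (33.4 to 56.7), 54.2 (51.3 to 57.3) and 177 (171 to 182). Library 3 was 4.02-fold above library 1 (3.11 to 5.29). It was found in 6.13%, 10.1% and 27.3% of thinned cells. Hist1h1e, a linker histone gene of the same cluster, measured 45.4, 46.7 and 64.9 CPM, so that the ratio of Hist1h1c to Hist1h1e UMIs was 0.967 (0.665 to 1.41), 1.16 (1.07 to 1.26) and 2.72 (2.55 to 2.90). None of the windows of Hist1h1c was shared, whereas those of Hist1h1e all occur in transcripts of Hist1h2be and a predicted gene as well.

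Hist4h4, the only member of its cluster, at chr6:136801553-136804415 (-), moved like Hist1h1c, at 16.4 (10.3 to 24.8), 23.4 (21.5 to 25.4) and 54.4 CPM (51.2 to 57.8), with library 3 3.32-fold above library 1 (2.18 to 5.32). It shared no window with another gene. Hist3h2a, an H2A gene on chromosome 11, was ordered the opposite way, with 91.6 (76.1 to 109), 64.5 (61.4 to 67.8) and 49.9 CPM (46.8 to 53.1). Hist1h2bc, an H2B gene, measured 51.4, 45.8 and 38.1 CPM, and Hist1h4d, an H4 gene, 21.6 (14.5 to 31.0), 13.5 (12.1 to 15.0) and 6.42 (5.36 to 7.64). These 3 members were lowest in library 3.

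Hist1h1b, a linker histone gene of the large cluster, did not reach a mean of 10 CPM and was nearly limited to library 2. It had no UMI in library 1, 514 UMIs in library 2 (21.3 CPM, 19.5 to 23.3) and 11 in library 3 (0.556 CPM, 0.278 to 0.996). Library 2 was 38.3-fold above library 3 (21.2 to 77.3) and at least 9.55-fold above library 1, taking 3 counts as the floor there. Hist1h3a, an H3 gene, was found in library 2 at 3.57 CPM and in library 3 at 8.95 CPM, and had no UMI in library 1. The remaining members of the 20 highest, Hist2h4, Hist1h2be, Hist2h2aa1, Hist1h4i, Hist2h2ac, Hist1h4c, Hist2h2be, Hist1h4h, Hist1h3e and Hist1h2bg, lay between 2.23 and 20.1 CPM in all libraries.

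The 57 members below 10 CPM summed to 42.4 CPM (32.1 to 55.0), 136 (132 to 141) and 64.9 (61.4 to 68.5), so that as a group they were 2.099-fold higher in library 2 than in library 3 (1.97 to 2.24). Of the 53 with any UMI, 47 were higher in library 2 than in library 3 by some amount and 6 were lower, where 55.5% of 8175 such genes were higher and 43.3% lower. No UMI was seen for 4 members. Any UMI was seen for 35 replication-dependent members in library 1, 65 in library 2 and 60 in library 3, in the order of the depths.

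The members were also divided by their annotated transcript ends, in a split made after their values had been seen. The 21 members with at least 100 bases after the stem-loop summed to 281, 308 and 425 CPM and were highest in library 3. The 21 whose annotated transcript ends 0 to 99 bases after it summed to 58.8, 298 and 91.6 CPM and were 3.26-fold higher in library 2 than in library 3 (3.09 to 3.43). The other 27 gave 60.3, 105 and 50.9 CPM. The 28 members with at least 50% of windows shared gave 101, 331 and 140 CPM, and the 41 below that gave 299, 379 and 428 CPM, so libraries 2 and 3 changed order between them. Hist1h2ap and Hist1h1c fell on opposite sides of both splits. In library 2, Hist1h2ap gave 5814 of the 7186 UMIs of the 0 to 99 base group and of the 7979 with at least 50% shared. In library 3, Hist1h1c gave 3490 of the 8405 UMIs of the group with at least 100 bases and of the 8458 below 50% shared. These sums were not made without both genes, so the splits cannot be told apart from them.

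To see which cells carried these transcripts, the thinned cells were divided by whether they held at least 2 UMIs of the replication list, of the mitosis list, of both or of neither. No histone gene is in these lists. The classes are ranges of a count and not cell types, and 845 cells of library 2 stood at exactly 2 replication UMIs and 681 at exactly 2 mitosis UMIs. Library 2 held 905 cells with neither, 1306 with replication UMIs only, 970 with both and 388 with mitosis UMIs only. Library 1 had 344, 62, 1 and 1 such cells and library 3 had 2216, 1059, 8 and 1. Cells with replication UMIs only thus made up 15.2%, 36.6% and 32.2% of the thinned cells of libraries 1, 2 and 3. Whether the cells of this class were in S phase was not tested. Levels in the classes are given per 10000 UMIs of the unthinned cells.

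In library 2 the replication-dependent histones were higher in the cells with mitosis UMIs and not in those with replication UMIs alone. The levels were 4.81 per 10000 UMIs (4.63 to 4.996) in cells with neither, 4.83 (4.68 to 4.98) with replication UMIs only, 11.3 (11.0 to 11.5) with both and 7.06 (6.74 to 7.39) with mitosis UMIs only. The variants gave 29.0 (28.6 to 29.5), 30.004 (29.6 to 30.4), 37.2 (36.7 to 37.6) and 33.1 (32.4 to 33.8). The ratio of cells with both to cells with neither was thus 2.34 (2.24 to 2.45) for the replication-dependent histones, 1.28 (1.26 to 1.31) for the variants and 1.55 (1.48 to 1.64) for the replication-dependent histones without Hist1h2ap. Median depths were 5636, 5783.5, 7304 and 5760 UMIs per cell, and the part of depth in these values was not tested.

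Here the filter was a mean of at least 10 CPM over the classes compared, so a high level in either class could bring a gene past it. It let in 13 replication-dependent members for the cells with both, 10 for replication UMIs only and 12 for mitosis UMIs only. Calls on members that entered only through the class where they are high are no separate support, and such members were not set apart. Of the 13, 5 were at least 2-fold higher in cells with both than in cells with neither, where 1.86% of 8018 genes were. They were Hist1h2ap (0.884 to 5.16 per 10000, 5.83-fold), Hist1h2ae (3.77-fold), Hist1h1b (2.98-fold), Hist2h2ac (2.47-fold) and Hist1h4d (2.27-fold). Among the variants this held for H2afx (0.689 to 1.45 per 10000, 2.11-fold), while H2afz was 1.52-fold (1.47 to 1.57), H2afv 1.43-fold (1.30 to 1.58), H2afy 1.22-fold (1.12 to 1.33), H3f3a 1.19-fold (1.13 to 1.26) and H3f3b 1.06-fold higher (1.03 to 1.09). Hist1h1c, at 1.10-fold (0.940 to 1.28), had an interval that held 1, and Hist3h2a was lower, at 0.761-fold (0.663 to 0.874). In cells with mitosis UMIs only, Hist1h2ap (2.51-fold) and Hist1h2ae (2.22-fold) passed, where 0.341% of 7907 genes did. No member passed in cells with replication UMIs only, where 0.0882% of 7937 genes did.

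**Figure D4:**
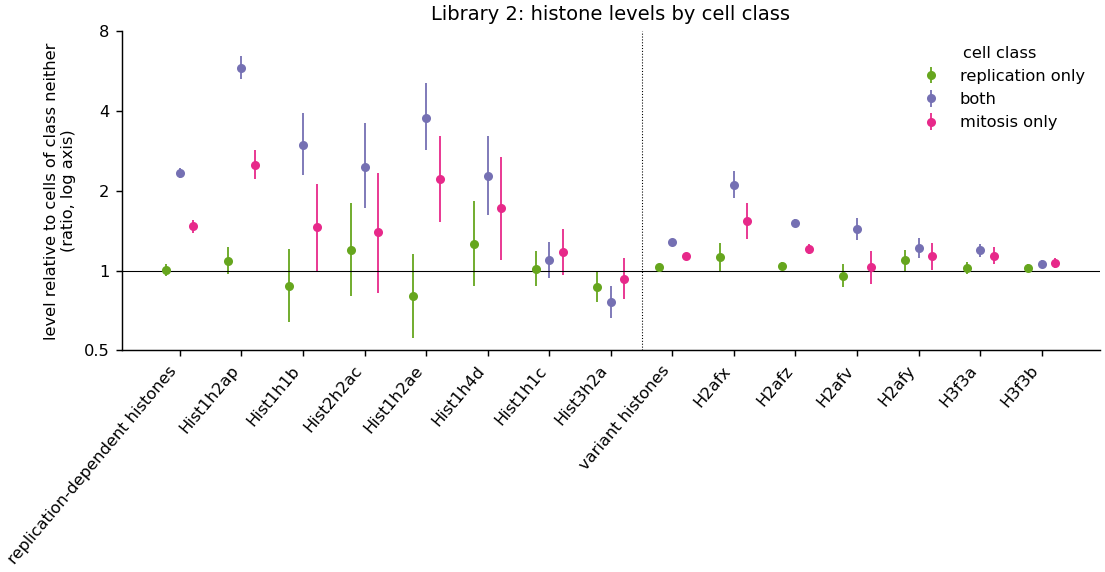
Level of histone genes and groups in the cells of library 2 with at least 2 UMIs of the replication list only, of both lists or of the mitosis list only, as a ratio to the cells with neither (points, log axis, exact 95% intervals). The cells with both stood out for Hist1h2ap (5.83) and Hist1h2ae (3.77), whereas Hist1h1c, H3f3b and H3f3a stayed between 1.02 and 1.19 in all 3 classes.

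The cells of library 2 were also put in order of their mitosis UMIs after thinning. Hist1h2ap went from 0.883 per 10000 in the 1029 cells with none to 9.52 in the 372 cells with at least 4. The replication-dependent histones went from 4.73 to 17.9 and H2afz from 9.98 to 18.5, while H3f3b went from 12.2 to 14.1. The median depth of these cells went from 5731 to 8874.5 UMIs. Along the number of replication UMIs, with cells that also held mitosis UMIs included, the replication-dependent histones were at 5.64, 5.49, 6.52, 7.56 and 9.26 per 10000 in cells with 0, 1, 2, 3 and at least 4, and Hist1h2ap went from 1.37 to 3.95, at median depths from 5636 to 7448 UMIs. In library 3 the replication-dependent level was 5.75 per 10000 (5.62 to 5.89) in cells with neither and 5.47 (5.29 to 5.65) in the 1059 cells with replication UMIs only, and the variants were at 56.6 (56.2 to 57.1) and 56.0 (55.4 to 56.6). The 8 cells of library 3 with both lists held 32 Hist1h2ap UMIs (4.64 per 10000, 3.17 to 6.55) and 4 of the 11 Hist1h1b UMIs of that library. Hist1h2ap was at 10.5 per 10000 in the 3 cells of library 3 with at least 4 mitosis UMIs. It was at 1.02 and 0.576 in those with 2 and 3. The level thus rested on few cells, and the interval takes each UMI as independent. Library 1 gave 3.76 (3.37 to 4.18) in cells with neither and 4.42 (3.47 to 5.56) in 62 cells with replication UMIs only.

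The library differences of the variants were also present in the cells with neither list. In these cells H2afz was at 3.36, 10.0 and 3.79 per 10000 UMIs in libraries 1, 2 and 3, H2afx at 0.167, 0.689 and 0.211, H2afv at 0.435, 1.12 and 0.426, and H3f3b at 12.96, 12.02 and 47.4. Cells left with no UMI of either list after thinning gave the same picture. In their unthinned counts H2afz was at 3.43 (2.96 to 3.96) in 211 cells, 9.69 (9.04 to 10.4) in 142 cells and 3.74 (3.59 to 3.90) in 1047 cells. Between libraries 2 and 3 in the cells with neither, 3 of 6 variants were at least 2-fold higher and 1 lower, where 1.07% of 8007 genes were higher and 1.41% lower. Of the 11 replication-dependent members tested there, none was higher and Hist1h1c and Hist4h4 were lower. The summed replication-dependent level in these cells was 4.81 in library 2 (4.63 to 4.996) and 5.75 in library 3 (5.62 to 5.89), the opposite order to that over all cells. Hist1h1c gave 280 of these 2626 UMIs in library 2 and 2375 of these 7488 in library 3. The opposite order can therefore not be read as that of the replication-dependent members as a group.

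Hist1h2ap was found in 4.65% (2.68 to 7.44%), 14.3% (12.04 to 16.7%) and 8.17% (7.06 to 9.39%) of the thinned cells with neither list in libraries 1, 2 and 3, at 0.312, 0.884 and 0.460 per 10000 UMIs. The files name no cell type that should lack the gene, and how much of this is free RNA was not tested. A replication-dependent UMI of any member was found at 2000 UMIs in 50% (45.0 to 55.0%), 62.2% (60.6 to 63.8%) and 63.5% (61.8 to 65.1%) of the cells of the 3 libraries, and in 91.5% and 91.4% of cells of libraries 2 and 3 without thinning. The share of cells with any member therefore did not separate libraries 2 and 3. Their summed levels also lay closer together after thinning, so this share and the unthinned sums are not like measures. Without Hist1h2ap the thinned share was lower in library 2, at 55.3% (53.7 to 56.9%) against 60.9% (59.2 to 62.5%) in library 3. It was higher in library 2 without Hist1h1c, at 58.5% against 50%, and without both genes, at 50.7% against 46.5%.

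In library 3 the histone genes that led there were compared with the early and heat shock genes across cells, a comparison chosen after their library values had been seen. The 3284 thinned cells were put in order of their UMIs of that list and cut into 4 bins of 821 cells, from 10 to 39 list UMIs in the first to 74 to 123 in the last. H3f3b was at 33.6 (33.1 to 34.2), 42.8, 52.2 and 57.2 per 10000 (56.5 to 57.8). Hist1h1c went from 1.28 (1.18 to 1.39) to 2.22 (2.096 to 2.36), Hist1h1e from 0.466 (0.404 to 0.534) to 0.804 (0.727 to 0.886) and Hist4h4 from 0.311 (0.261 to 0.368) to 0.601 (0.535 to 0.673). H3f3a stayed at 3.31 (3.14 to 3.48) and 3.33 (3.17 to 3.49), and H2afz was lower in the last bin, at 3.62 (3.45 to 3.79) against 4.15 (3.96 to 4.35). The median depth was 5008 UMIs in the first bin and 5957 in the last.

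**Figure D5:**
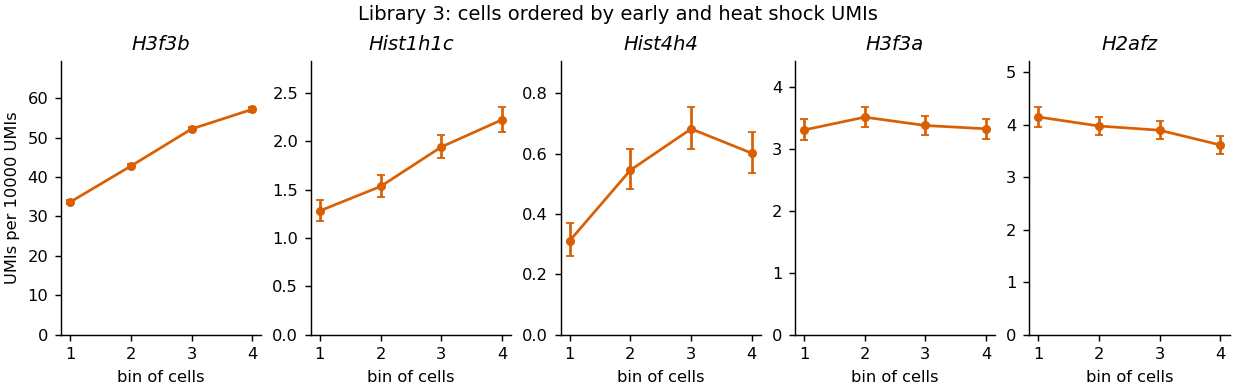
Level per 10000 UMIs (points, with exact Poisson 95% intervals) of 5 histone genes in the cells of library 3, put in order of their UMIs of 20 immediate early and heat shock genes and cut into 4 bins of 821 cells. H3f3b, at 33.6 to 57.2, and Hist1h1c, at 1.28 to 2.22, were higher in each later bin, Hist4h4 was lowest in the first, and H3f3a was level.

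Even the first bin of library 3 lay above libraries 1 and 2 for H3f3b, whose bins there ranged from 12.2 to 13.3 and from 12.1 to 12.98 per 10000. In library 2, the cells in the last bin, with 8 to 25 list UMIs, had Hist4h4 at 0.352 (0.307 to 0.403) against 0.173 (0.142 to 0.210) in the first, and Hist1h1c at 0.661 against 0.482. The part of the early-gene state in the library differences of these members was not tested.

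Genes that process histone mRNA or load histones were taken from fixed lists. Of 10 tested genes of the supply list, 2 were at least 2-fold higher in library 2 than in library 1, where 4.55% of all tested genes were, and none passed in the other comparisons. They were Eri1, an exonuclease that trims histone mRNA ends, at 20.8, 50.7 and 32.4 CPM, and Lsm11, a subunit of the particle that cuts histone mRNA, at 6.70, 16.5 and 12.9 CPM. Slbp measured 113, 216 and 134 CPM and did not reach 2-fold. In the chaperone list of 15 tested genes, 5 (Hjurp, Hat1, Nasp, Mcm2 and Asf1b) were higher in library 2 than in library 1, 2 (Nasp and Mcm2) in library 3 than in library 1, and 2 (Hjurp and Asf1b) in library 2 than in library 3, where 4.55%, 3.62% and 1.92% of all tested genes were. Mcm2, a helicase subunit that also binds H3 and H4, measured 2.98, 32.7 and 24.2 CPM, with 4 UMIs in library 1, and Hat1, which acetylates new H4, 26.1, 56.9 and 43.7 CPM. Asf1b, which hands new H3 and H4 to chromatin, measured 3.72, 68.1 and 7.18 CPM, and Hjurp, which loads the centromere H3, 61.1, 167 and 45.8 CPM. Below 10 CPM in libraries 1 and 3, Asf1b passed the filter only through library 2. Nasp, a carrier of H3 and of linker histones, measured 13.4, 45.4 and 31.5 CPM, and the subunits Chaf1a and Chaf1b of the replication-coupled assembly factor 2.23, 18.9 and 5.36 and 1.49, 17.8 and 5.31 CPM.

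Histone genes outside the name rule were read beside the members. Cenpa, the centromere H3, measured 2.23, 54.6 and 1.26 CPM and was, like Hist1h1b, nearly limited to library 2. H1f0, a linker histone gene of cells that do not divide, measured 61.8, 51.5 and 124 CPM, was 2-fold different between libraries 2 and 3, and went from 0.987 (0.895 to 1.08) to 1.35 (1.25 to 1.45) per 10000 between the first and the last early-gene bin of library 3. H2afj measured 105, 156 and 81.2 CPM. In the cells of library 2 with both lists, Cenpa was 2.08-fold (1.77 to 2.46), Asf1b 2.44-fold (2.11 to 2.83) and Slbp 1.54-fold (1.42 to 1.66) above the cells with neither, while H1f0 was at 1.08-fold (0.928 to 1.26) and H2afj at 1.01-fold (0.928 to 1.11).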

How the data were processed

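Droplet single-cell 3′ sequencing counted transcripts as unique molecular identifiers (UMIs) per gene and cell in 3 libraries. The authors deposited raw UMI counts, without normalization, as 1 matrix joining the libraries. Per the submitters' processing notes, Cell Ranger 2.1.1 and the build mm10 were used. The kit named in the labels and that in the methods differ in version. Doublets were excluded in the sort, and no caller was run here. Counting by gene can split or drop reads shared between histone copies.

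UMIs were summed over all deposited cells per barcode suffix and scaled to 1000000 (CPM). Genes with a mean of at least 10 CPM were compared, with 1 CPM added, against a limit of 2-fold. Shares and cell classes used cells thinned to 2000 UMIs (seed 1). With 1 library per time point no test was made. Intervals are exact Poisson, Clopper-Pearson or conditional binomial 95% intervals. Steps were tested on simulated libraries. Shared windows of 91 bases were counted in the last 400 bases of each GENCODE M21 transcript, where 73 of 75 members matched, and promoters are those of RefSeq.

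Named members are the 6 variants, the 20 replication-dependent genes with the highest mean and each H1 gene with at least 10 CPM. From the supply, chaperone and other histone lists, up to 4 genes each were named that reached 10 CPM and differed 2-fold. Hat1, Slbp, H2afj, Chaf1a, Chaf1b and the markers were named after their values were seen, and the comparison over bins of cells by early-gene UMIs was added then too. Members and lists were chosen with earlier results of these data known. Alternatives were a cell filter (at least 500 UMIs and 200 genes, at most 10% mitochondrial UMIs), other scalings, thinning depths, pseudocounts, limits and members left out. The scripts ran under Python 3.11.15 with pandas 2.3.3, numpy 2.4.6, scipy 1.17.1 and matplotlib 3.10.9.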

Additional observations from a re-analysis of the deposited data

How the results depend on the processing

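With 1 library per time point and no tie between suffix and time point, no result has a replicate check. No paired analysis was possible because each group is 1 library and the labels carry no shared replicate numbers. The members left out and the shared barcodes were chosen after the data were seen. Of the alternatives for single members, none turned the sign of a member that differed at least 2-fold.

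The log2 ratio of the replication-dependent histones between libraries 2 and 1 was 0.83. It was 0.62 as a mean over cells, 0.60 thinned, 0.37 without Hist1h2ap, 0.37 also without Hist1h1c and 0.34 without members sharing 50% of windows. Between libraries 3 and 1 it was 0.50, against 0.13 without Hist1h1c and 0.11 without both genes. Between libraries 2 and 3 it was 0.32. It was 0.28 with the total taken without early genes, 0.10 as a mean over cells, 0.11 thinned, 0.75 without Hist1h1c and 0.27 without both, and it turned to -0.15 without Hist1h2ap and to -0.17 without members sharing 50% of windows. For the variants, the ratio between libraries 2 and 1 was 0.60, against 0.70 with size factors, 0.51 thinned and 1.146 without H3f3b. Between libraries 3 and 1 it was 1.40, against 1.51 with size factors, 1.47 as a mean over cells and 0.063 without H3f3b. Between libraries 2 and 3 it was -0.80. It was -0.84 without early genes in the total, -0.85 as a mean over cells and -0.85 thinned, and turned to 1.08 without H3f3b.

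Members at least 2-fold different numbered 6, 4 and 8 for libraries 2 to 1, 3 to 1 and 2 to 3. With a mean of at least 50 CPM they numbered 3, 2 and 5, where 5.91%, 7% and 2.55% of 3215 genes differed. With no filter they numbered 25, 7 and 27, where 10.9%, 10.8% and 4.07% of 16305 genes did. Shares of cells with a replication-dependent UMI were 50%, 62.2% and 63.5%. They were 21.3%, 29.3% and 28.8% for at least 2 UMIs, 34.9%, 41.0% and 42.3% at 1000 UMIs and 77.8%, 84.7% and 85.3% at 4000 UMIs. Without thinning libraries 2 and 3 gave 91.5% and 91.4%, and without Hist1h2ap 55.3% and 60.9%.

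The log2 ratio of replication-dependent levels in cells with at least 2 UMIs of a list to the others was 0.34 in library 1, 0.70 in library 2 and -0.06 in library 3. In library 1 it turned to -0.055 at a limit of 1 UMI and was 0.91 at 3. In library 2 it was 0.57 and 0.96 at these limits and 0.33 without Hist1h2ap, and in library 3 it was -0.12 at 3. For the variants it was 0.007 in library 1, turning to -0.0035 without the 1% deepest cells. In library 2 it was 0.20, against 0.25 at a limit of 3 and 0.29 without H3f3b. In library 3 it was -0.02, against -0.039 at a limit of 3, and turned to 0.065 without H3f3b.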
